A study of Rattus norvegicus with 24 samples.

Results

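The generations of the postnatal oxycodone (PNO) lineage are compared here, with the 4 F2 PNO libraries set against the 4 F1 PNO libraries. They are 8 of the 24 libraries of the series and were chosen by their titles. A gene was kept when its level was at least 1 FPKM (fragments per kilobase and per 1e6 fragments) in 4 or more of the 8 libraries. That left 13619 of the 23950 genes in the files, of which 1729 carry only a clone or accession symbol. The study sequenced total RNA of the nucleus accumbens of Sprague Dawley rats at post-natal day 14, in 6 groups of 4 replicates, each replicate from a separate litter. For the PNO lineage, F0 dams were gavaged with 15 mg/kg/day of oxycodone from parturition to weaning, so that F1 PNO pups met the drug through the breastmilk. F1 animals were not dosed before or after breeding, and the F2 PNO pups were born to F1 PNO females mated with males from outside the experiment. The other lineages are saline (SAL) and in utero oxycodone (IUO), whose F0 dams received oxycodone before and throughout mating and gestation as well as until weaning, up to a final 15 mg/kg/day. Direct exposure of the pup and generation cannot be told apart within the PNO lineage, since every F1 PNO pup and no F2 PNO pup was nursed by a dosed dam. Tissue was cut with a brain matrix, and the sex of each pup, picked at random, is not given.

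The nucleus accumbens is the ventral part of the striatum, and most of its neurons are GABAergic projection neurons that receive dopamine from the midbrain and glutamate from cortex, thalamus, hippocampus and amygdala. Projection neurons make opioid peptides, enkephalin from Penk mainly in cells with the dopamine receptor Drd2 and dynorphin from Pdyn mainly in cells with Drd1, and oxycodone acts on the opioid receptors that these peptides bind. During the nursing period the tissue is still maturing, with axons extending, synapses forming and myelin being laid down.

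Values of a group are given in the order of replicates 1 to 4. FPKM summed to 670219, 673537, 591060.0 and 644482 in F1 PNO and to 766781, 657491, 662411 and 612537 in F2 PNO. The number of reads behind the values is unknown, so counting error is not given, and 0 in a table is reported as listed at 0. F2 PNO 1 stood apart from the other 7 libraries. It had the highest FPKM sum and the lowest median over the kept genes, 6.96 FPKM, where the other 7 ranged from 8.44 to 9.71 FPKM. Its mean correlation across genes with the other F2 PNO libraries was 0.908, against 0.926 to 0.94 for the other F2 PNO libraries and 0.95 to 0.961 within F1 PNO. A first principal component with 42.5% of the variance set it at 98.1 and the other 7 between -32.4 and 0.78. Slc17a7, the glutamate transporter of cortical synapses, was at 18.4 FPKM in F2 PNO 1 and between 101 and 252 FPKM in the other 7. The scaffold gene Homer1 was at 0.63 FPKM there and between 6.01 and 9.66 FPKM elsewhere, while the myelin gene Mbp was highest there, at 1738 FPKM. The main counts and the list medians are therefore also given without F2 PNO 1. Choroid plexus RNA marked F2 PNO 4 and F1 PNO 3: the plexus transporter gene Ttr was at 245, 8.85, 3742 and 15.6 FPKM in F1 PNO and 10.6, 8.52, 21.9 and 6696 FPKM in F2 PNO. Y-linked RNA was uneven too: the translation factor gene Eif2s3y was at 19.8, 28.1, 1.19 and 0.58 FPKM in F1 PNO and 0, 0.03, 0 and 16.5 FPKM in F2 PNO.

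Defining genes of the labelled tissue were present in all 8 libraries. Ppp1r1b, the dopamine-regulated phosphatase inhibitor of projection neurons, was at 296, 208, 266 and 291 FPKM in F1 PNO and 473, 298, 287 and 359 FPKM in F2 PNO. Drd1 ranged from 8.64 to 16.6 FPKM and Drd2 from 18.2 to 44.2 FPKM over the 8 libraries. Genes of neighbouring regions were present too, and unequally: Tcf7l2, a transcription factor of thalamus and habenula neurons, was at 51.5, 138, 60.8 and 96.7 FPKM in F1 PNO and 29.9, 47.1, 97 and 8.54 FPKM in F2 PNO. In bulk samples like these, fewer cells of a type and less RNA per cell cannot be told apart.

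Few genes separated the generations once p was adjusted over all genes tested. By limma, 3 of 13619 genes (0.0220%) had a Benjamini-Hochberg adjusted p under 0.05, 1 higher and 2 lower in F2 PNO. Without adjustment, 580 genes (4.26%) had p under 0.05, 271 higher and 309 lower in F2 PNO. A criterion with the study's cutoffs for candidate genes, 0.05 and 1.5-fold, applied here to the unadjusted limma p and the ratio of mean FPKM, was met by 306 genes (2.25%). The filter kept 16 genes through 1 generation only, at 1 FPKM or more in its 4 libraries and in none of the other. Their lack of overlap followed from how they were kept, and 14 of them are among the 306. Of the 306 genes, 139 were higher in F2 PNO (1.02% of genes tested) and 167 were lower (1.23%). The 4 values of a generation lay wholly above or below those of the other for 444 genes (3.26%), 193 higher and 251 lower in F2 PNO; 70 of the 139 and 80 of the 167 genes are among them. Without F2 PNO 1 the adjusted count was 5, 1 higher and 4 lower, and the criterion was met by 312 genes, 175 higher and 137 lower. The lists shared 194 genes, 63.4% of the 306 and 62.2% of the 312, so the balance of directions depended on this library. The median log2 difference (F2 PNO minus F1 PNO) over all genes was -0.06, and 0.03 without F2 PNO 1; with all 8 libraries 5433 genes were on the higher and 8186 on the lower side. Spread within F2 PNO exceeded that within F1 PNO, with a median SD over genes of 0.323 against 0.206 on the log2 scale. The same generations of the SAL lineage, over the same genes, gave 1 adjusted and 1268 unadjusted calls, with 257 genes past the criterion, and those of the IUO lineage gave 0, 2326 and 1220.

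The smallest p belonged to RGD1562420 (ENSRNOG00000005826), which the annotation describes as the ribosomal protein L19. It was at 133, 52.5, 124 and 131 FPKM in F1 PNO 1 to 4 and at 1.85, 0.73, 1.04 and 1.31 FPKM in F2 PNO 1 to 4. Every F1 PNO library was far above every F2 PNO library, and F1 PNO 2 was the lowest of its group. The entry fell by 6.35 on the log2 scale (standard error 0.35; limma adjusted p = 0.00027), lower in 4 of 4 F2 PNO libraries. Rpl19 itself (ENSRNOG00000004741), the gene of that protein of the large ribosomal subunit, was at 232, 281, 282 and 252 FPKM in F1 PNO and 546, 344, 342 and 400.0 FPKM in F2 PNO. Its groups did not overlap in the opposite direction (log2 difference 0.62; limma p = 0.00423, exact p = 0.0286). Summed over the pair of entries, a choice made after seeing the data, the level was 365, 334, 406 and 384 FPKM in F1 PNO and 548, 345, 343 and 401 FPKM in F2 PNO. The sums overlapped, with a log2 difference of 0.11 (exact permutation p = 0.657). How reads were shared between the entries was not tested. In the SAL lineage RGD1562420 was at 104, 57.5, 69.9 and 57.4 FPKM in F1 and 3.48, 2.63, 51.7 and 60.2 FPKM in F2. There F2 SAL 4 lay within F1 and F2 SAL 3 just below it. In the IUO lineage it was at 13.7, 3.52, 1.59 and 43.3 FPKM in F1 and 1.79, 1.02, 1.35 and 2.37 FPKM in F2, so low values also occurred in F1 pups.

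**Figure D1:**
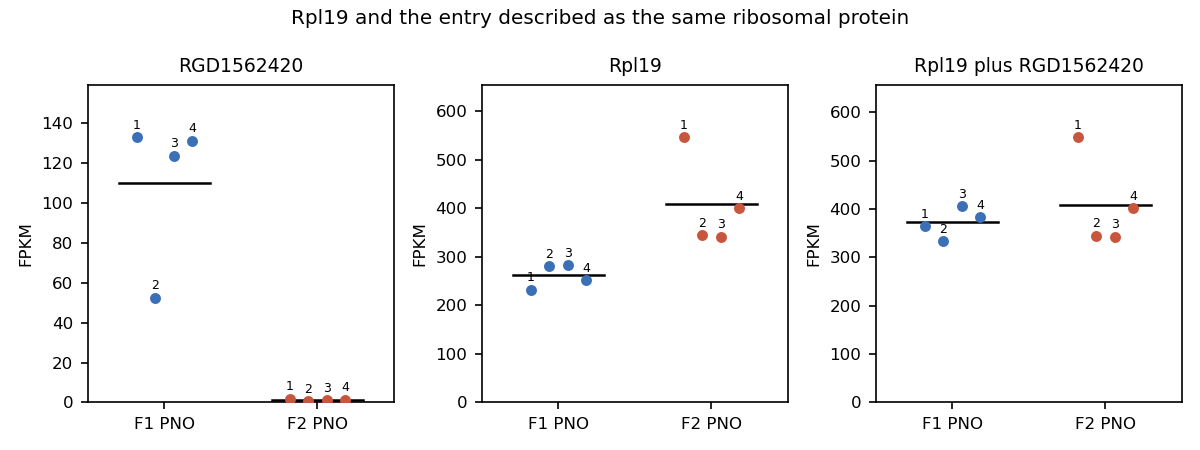
FPKM (vertical axes, from 0) of RGD1562420, of Rpl19 and of their sum in the 4 F1 PNO and 4 F2 PNO libraries; numbers are replicates and lines are group means. RGD1562420 lay between 52.5 and 133 FPKM in F1 PNO and between 0.73 and 1.85 FPKM in F2 PNO, while the sums of the groups overlapped.

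The other calls at the adjusted threshold carry clone symbols, and their products are not known from the symbol. AABR07044460.2 (ENSRNOG00000062206) was at 0.21, 0.12, 0.31 and 0.19 FPKM in F1 PNO and 2.15, 2.47, 2.63 and 2.93 FPKM in F2 PNO. It rose in 4 of 4 F2 PNO libraries (log2 difference 3.13, standard error 0.33; limma adjusted p = 0.0259). It passed the filter only through F2 PNO; with a minimum of 0.1 FPKM its limma adjusted p = 0.0123, and with no filter beyond a value above 0 adjusted p = 0.0268. AC108616.2 (ENSRNOG00000062160) was at 4.7, 7.1, 5.15 and 7.11 FPKM in F1 PNO and 0.72, 1.06, 1.11 and 0.49 FPKM in F2 PNO, and fell by 2.73 on the log2 scale (standard error 0.29; limma adjusted p = 0.0259). The groups of AC108616.2 did not overlap, and for AABR07044460.2 the lack of overlap followed from how it was kept. Over the alternative settings the adjusted p ranged from 0.00718 to 0.876 for AABR07044460.2 and from 0.00945 to 0.613 for AC108616.2, while that of RGD1562420 ranged from 7.23e-05 to 0.00554. In a limma fit of all 24 libraries the adjusted p was 0.876 for AABR07044460.2 and 0.174 for AC108616.2. Leaving out any library other than F2 PNO 1 took both above 0.05, up to 0.2685 and 0.2297. Without F2 PNO 1 both were at 0.0494. A replicate block gave 0.5666 for both, and the Y-linked covariate gave 0.2008 and 0.0777. AC108616.2 had log2 differences of 0.72 between the SAL generations and 1.07 between the IUO generations, and the limma interaction gave adjusted p = 1 against SAL and adjusted p = 0.563 against IUO.

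Below the adjusted threshold, 20 genes with a symbol were taken by smallest p among those past the criterion whose groups did not overlap, 10 in each direction. None of the 20 passed the adjusted threshold with the filter used here, though Mast4 did with looser filters, as given below. Among the higher genes RT1-A2, a class I major histocompatibility gene of the rat, was at 0.93, 1.8, 1.08 and 0.66 FPKM in F1 PNO and 4.14, 4.05, 4.33 and 6.6 FPKM in F2 PNO. F2 PNO 4 was highest and every F2 PNO library was above every F1 PNO library (log2 difference 2.05, standard error 0.31; limma p = 9.93e-05, exact p = 0.0286, adjusted p = 0.225). Its family of genes differs between rat strains and individuals, and the part of genotype was not tested. Uxt, a prefoldin-like chaperone subunit, was at 9.93, 11.3, 15 and 13 FPKM in F1 PNO and 25.4, 23.2, 22.6 and 36.3 FPKM in F2 PNO. Again F2 PNO 4 was highest, with no overlap (log2 difference 1.11; limma p = 0.000226, exact p = 0.0286, adjusted p = 0.342). Kcne5, an accessory subunit of voltage-gated potassium channels, was at 20.2, 14.6, 19.2 and 17.7 FPKM in F1 PNO and 29.4, 30.6, 27 and 31.8 FPKM in F2 PNO. Its F2 PNO values lay close together above F1 PNO (log2 difference 0.73; limma p = 0.000285, exact p = 0.0286, adjusted p = 0.358). The other 7 higher genes had log2 differences from 0.76 (Mrpl50) to 1.14 (P3h4). They are Crot, which handles medium-chain acyl groups in peroxisomes, Mgst1, a membrane-bound glutathione transferase, Acad10 of the acyl-CoA dehydrogenase family, the mitochondrial ribosomal protein gene Mrpl50, P3h4, a partner of collagen-modifying enzymes, Tspan15, a tetraspanin, and Tmem255b. P3h4 was the exception to a covariate of thalamus and habenula marker genes, which took its log2 difference to 0.63, with unadjusted limma p above 0.05; the other 19 of the 20 stayed under that.

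Nefm and Gap43, 2 of the 10 lower genes, encode proteins of axons. Nefm, the medium neurofilament subunit, was at 117, 137, 137 and 109 FPKM in F1 PNO and 62.3, 68, 82.4 and 48 FPKM in F2 PNO. F2 PNO 3, the highest of its group, was still below the lowest F1 PNO library (log2 difference -0.95, standard error 0.17; limma p = 0.000289, exact p = 0.0286, adjusted p = 0.358). The partner subunits, looked up after the value of Nefm was seen, were lower too: Nefl at 209, 233, 229.8 and 188 FPKM in F1 PNO and 128, 149, 173 and 108 FPKM in F2 PNO, with no overlap (log2 difference -0.64; limma p = 0.00255, exact p = 0.0286). Nefh, the heavy subunit, had a log2 difference of -0.70 (limma p = 0.0168, exact p = 0.0857), and its groups overlapped. Gap43, a growth cone protein, was at 491, 427, 641 and 484 FPKM in F1 PNO and 220.4, 348, 303 and 316 FPKM in F2 PNO. F2 PNO 1 was lowest and the groups did not overlap (log2 difference -0.79, -0.65 without F2 PNO 1; limma p = 0.00145, exact p = 0.0286, adjusted p = 0.776). Between the SAL generations Gap43 had a log2 difference of 0.00, and the limma interaction with SAL had adjusted p = 1. The next 2 genes come from the immature neuron list, in which 6 of 10 genes were on the higher side and the median was 0.04 (0.28 without F2 PNO 1). Stmn2, a tubulin-binding protein of growing axons, was at 627, 714, 739 and 673 FPKM in F1 PNO and 347, 514, 607 and 525 FPKM in F2 PNO, without overlap (log2 difference -0.49; limma p = 0.0179, exact p = 0.0286). Tubb3, neuronal beta-tubulin, had a log2 difference of -0.56 (limma p = 0.0392, exact p = 0.0571), which without F2 PNO 1 was -0.34 with exact p = 0.143. With the thalamus covariate the log2 differences were -0.68 for Nefm and -0.78 for Gap43, with unadjusted limma p still under 0.05, and -0.38 for Nefl, -0.38 for Nefh, -0.24 for Stmn2 and -0.31 for Tubb3, with p above it.

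Next to the called entries, the smallest p among lower genes was that of Pxmp4, a protein of the peroxisomal membrane, at 19.98, 18.1, 18.4 and 16.5 FPKM in F1 PNO and 5.03, 8.37, 8.19 and 7.72 FPKM in F2 PNO. F2 PNO 1 was lowest, and the 3 other F2 PNO libraries lay between 7.72 and 8.37 FPKM, under all of F1 PNO (log2 difference -1.33, standard error 0.18; limma p = 3.5e-05, exact p = 0.0286, adjusted p = 0.119). Mast4, a microtubule-associated kinase, was at 1.2, 1.18, 1.01 and 1.41 FPKM in F1 PNO and 0, 0.07, 0.04 and 0 FPKM in F2 PNO. An entry described as the same kinase, NEWGENE_1310139, was at 1.13, 1.08, 1.0 and 1.27 FPKM in F1 PNO and 0.11, 0.06, 0 and 0.09 FPKM in F2 PNO. Summed over the pair, a choice made after seeing the data, the level was 2.33, 2.26, 2.01 and 2.68 FPKM in F1 PNO and 0.11, 0.13, 0.04 and 0.09 FPKM in F2 PNO. The sum was lower by 3.67 on the log2 scale (exact p = 0.0286, limma adjusted p = 0.0259 over the genes with sums). Both entries passed the filter only through F1 PNO, which favours such a difference. With a minimum of 0.1 FPKM the limma adjusted p was 0.0124 for Mast4 and 0.0333 for NEWGENE_1310139. With no filter beyond a value above 0 the limma adjusted p was 0.0208 and 0.0456. Mast4 was at 1.62, 1.41, 0.01 and 1.34 FPKM in F1 SAL and 1.07, 0.08, 0.2 and 0 FPKM in F2 SAL, and at 0.05, 1.02, 0.16 and 0.34 FPKM in F1 IUO and 0.04, 0.01, 0.17 and 0 FPKM in F2 IUO. NEWGENE_1310139 was at 1.7, 1.37, 1.05 and 1.25 FPKM in F1 SAL and 1.13, 0.58, 1.89 and 0 FPKM in F2 SAL, and at 0.89, 1.02, 1.51 and 1.25 FPKM in F1 IUO and 0.82, 0.74, 0.99 and 0.3 FPKM in F2 IUO. Mast4 alone was thus low in several SAL and IUO libraries, while both entries were at 0 in F2 SAL 4 only. The log2 differences of Mast4 were -1.51 in SAL and -1.38 in IUO, and the interaction of the sum with SAL had an unadjusted limma p above 0.05. Adarb1, an enzyme that edits adenosine in RNA, was at 30.03, 31.8, 33.5 and 30.5 FPKM in F1 PNO and 13.5, 21.5, 11.7 and 19.8 FPKM in F2 PNO, without overlap (log2 difference -0.96; limma p = 0.0008, exact p = 0.0286). Retsat, a retinol saturase, was at 30.4, 21.4, 25.1 and 33.5 FPKM in F1 PNO and 17.1, 13.4, 14.2 and 16.4 FPKM in F2 PNO (log2 difference -0.84; limma p = 0.000597, exact p = 0.0286). Every F2 PNO library was below every F1 PNO library for both genes. Ptcd3, of mitochondrial translation, Cbs, which makes cystathionine from homocysteine, and Shisa3, a regulator of Wnt and FGF receptors, had log2 differences of -0.69, -0.67 and -1.62. The list by size of difference added Apom (1.22), a lipoprotein component, and Arhgap36 (1.35) among higher genes, and Gpx2 (-2.04), a glutathione peroxidase, and Akr1cl (-1.66) among lower genes. Gpx2 and Apom were low in level, and passed the filter only through the generation in which they are higher: Gpx2 was at 1.06, 1.08, 1.93 and 1.93 FPKM in F1 PNO and 0.4, 0.62, 0 and 0.45 FPKM in F2 PNO. Apom was at 0.83, 0.24, 0.39 and 0.71 FPKM in F1 PNO and 1.75, 1.06, 1.31 and 1.11 FPKM in F2 PNO. The groups of Arhgap36 and Akr1cl did not overlap, while for Gpx2 and Apom the lack of overlap followed from how they were kept. Shisa3 too was kept through F1 PNO only. With thalamus markers as covariate, limma p above 0.05 and the log2 differences in brackets were found for Apom (0.90) and Arhgap36 (0.95).

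**Figure D2:**
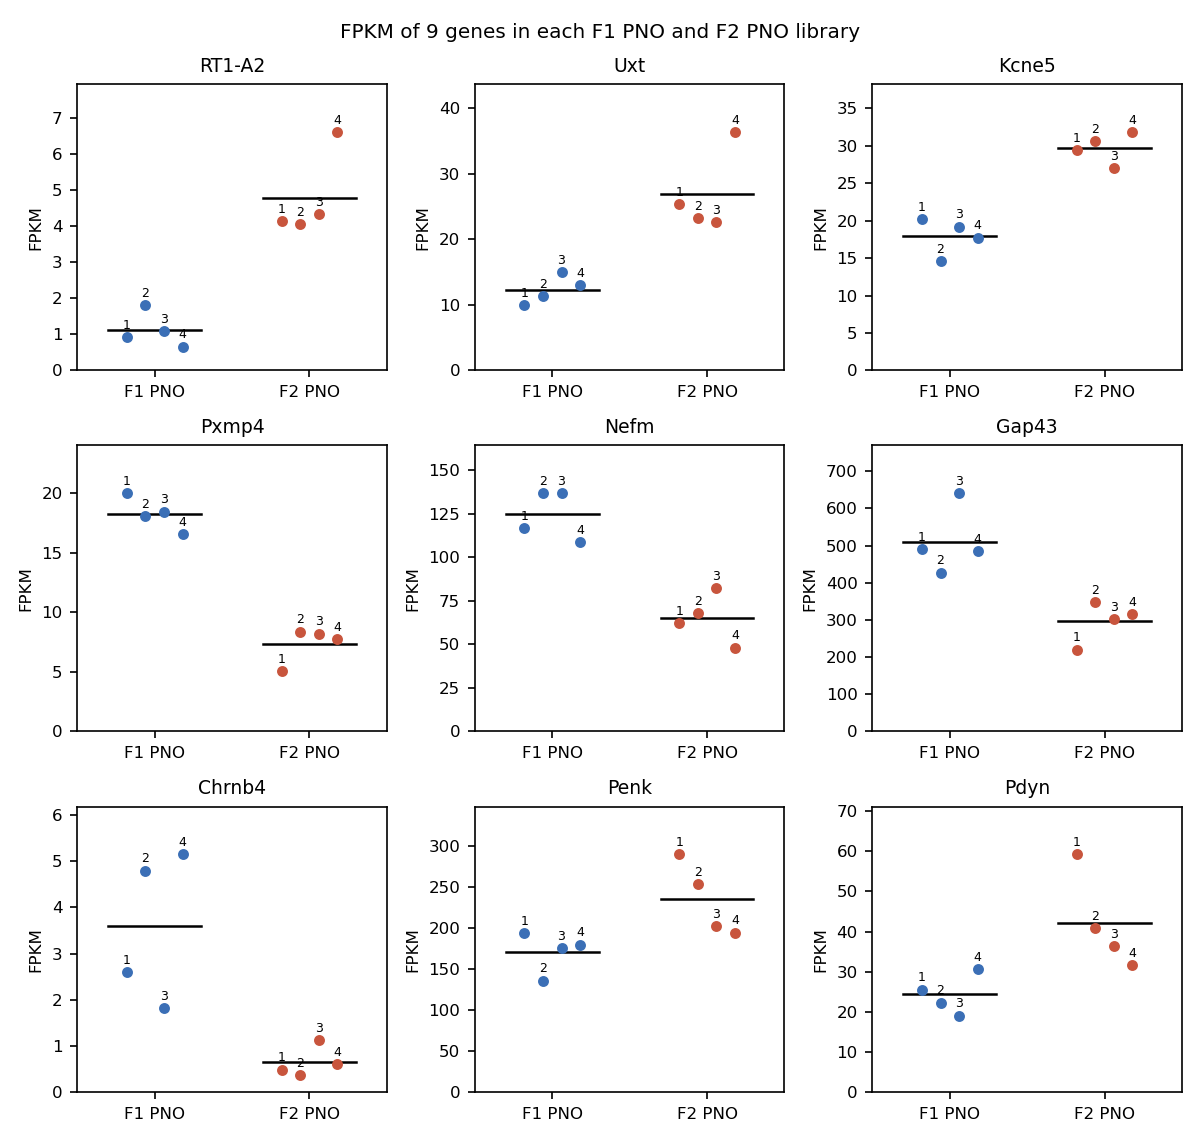
FPKM (vertical axes, each from 0) of 9 genes in the 4 F1 PNO and 4 F2 PNO libraries; numbers are replicates and lines are group means. For each of the 9 genes the groups do not overlap, by a wide gap for Pxmp4 (at least 16.5 FPKM in F1 PNO, at most 8.37 FPKM in F2 PNO) and a narrow gap for Penk (F1 PNO 1 and F2 PNO 4, less than 1 FPKM apart).

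Opioid peptide genes of the projection neurons were higher in F2 PNO, short of the adjusted threshold. Penk was at 194, 136, 176 and 179.6 FPKM in F1 PNO 1 to 4 and 289.5, 253, 202 and 194 FPKM in F2 PNO 1 to 4. The F2 PNO values were all above F1 PNO, but F2 PNO 4 exceeded the highest F1 PNO value, that of F1 PNO 1, by less than 1 FPKM (log2 difference 0.45; limma p = 0.0231, exact p = 0.0286, adjusted p = 0.932). Without F2 PNO 1 the log2 difference was 0.34, with exact permutation p = 0.0571. Left-out libraries, in brackets, that took the limma p above 0.05 were found for Penk (F1 PNO 2 and F2 PNO 1 and 2). Pdyn was at 25.5, 22.3, 19.1 and 30.6 FPKM in F1 PNO and 59.3, 40.9, 36.4 and 31.7 FPKM in F2 PNO. F2 PNO 1 was highest and the groups did not overlap (log2 difference 0.76; limma p = 0.00585, exact p = 0.0286, adjusted p = 0.932), and without F2 PNO 1 the difference was 0.59 with exact p = 0.0571. Between the SAL generations the log2 differences were -0.15 for Penk and -0.11 for Pdyn, with limma interaction adjusted p = 1 and adjusted p = 1. Between the IUO generations they were -0.76 and -0.42, in the opposite direction, with limma interaction adjusted p = 0.775 and adjusted p = 0.742. Pnoc, the nociceptin precursor, was at 3.58, 6.2, 6.99 and 5.74 FPKM in F1 PNO and 8.91, 5.66, 5.94 and 10.4 FPKM in F2 PNO. Its receptor gene Oprl1 was at 4.74, 5.73, 6.03 and 5.99 FPKM in F1 PNO and 5.27, 6.04, 6.84 and 7.83 FPKM in F2 PNO, and both genes overlapped. Oprk1, the kappa receptor that dynorphin binds, was at 1.26, 1.69, 1.15 and 1.99 FPKM in F1 PNO and 0.47, 1.34, 1.56 and 2.11 FPKM in F2 PNO, with overlap. Oprm1 and Oprd1, the mu and delta receptor genes, did not pass the filter: Oprm1 was at most 0.27 FPKM and Oprd1 at most 1.5 FPKM. Pomc, the precursor of beta-endorphin and ACTH, was at 818 FPKM in F2 PNO 4 and between 1.5 and 2.53 FPKM in the other 7 libraries, so this value belongs to 1 library. Of the 6 opioid genes tested, 2 had p under 0.05, against 4.26% of all genes, and the median log2 difference was 0.45 (0.35 without F2 PNO 1).

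Other genes of the indirect-pathway projection neurons were higher beside Penk. Drd2 was at 25.5, 20.3, 18.2 and 31.4 FPKM in F1 PNO and 36.6, 28.8, 30.3 and 44.2 FPKM in F2 PNO, where F1 PNO 4 overlapped with F2 PNO (log2 difference 0.56; limma p = 0.0205, exact p = 0.0857). Adora2a, the adenosine receptor of the same cells, was at 45.2, 33.8, 39.5 and 46.2 FPKM in F1 PNO and 64.1, 50.4, 48.1 and 55.4 FPKM in F2 PNO, without overlap (log2 difference 0.41; limma p = 0.0169, exact p = 0.0286). Gpr6, an orphan receptor enriched in them, was at 10.6, 8.5, 8.05 and 11.6 FPKM in F1 PNO and 22.3, 12.3, 13.7 and 14.3 FPKM in F2 PNO, also without overlap (log2 difference 0.66; limma p = 0.0113, exact p = 0.0286). For Adora2a and Gpr6 all F2 PNO libraries were the higher ones. Direct-pathway genes other than Pdyn did not pass: Drd1 was at 16.6, 12.5, 14.9 and 16.5 FPKM in F1 PNO and 8.64, 16.4, 15.4 and 15.5 FPKM in F2 PNO. Tac1, the substance P precursor, was at 60.4, 49.5, 48.6 and 71.9 FPKM in F1 PNO and 92.2, 67.9, 66 and 44.6 FPKM in F2 PNO. Of the 22 projection neuron markers, 5 were higher at p under 0.05 and 0 lower, 4 without overlap, where 271 of all 13619 genes were higher at that p and 193 higher without overlap. The criterion was met by 2 of them as higher, and by 0 without F2 PNO 1; the median log2 difference was 0.17 (0.14 without F2 PNO 1) against -0.06 over all genes. Their summed level was 1246, 936, 1082 and 1249 FPKM in F1 PNO and 1646, 1341, 1240.5 and 1338 FPKM in F2 PNO. With the thalamus covariate the log2 differences were 0.39 for Drd2, 0.19 for Adora2a, 0.46 for Gpr6, 0.24 for Penk and 0.70 for Pdyn, and none of the 5 kept an unadjusted limma p under 0.05. Omitting a library in brackets took the limma p above 0.05 for Drd2 (F1 PNO 2 and 3 and F2 PNO 4) and Adora2a (F1 PNO 2). The same held for Chat (F1 PNO 1, 3 and 4 and F2 PNO 1 and 4) and Calb2 (F1 PNO 2, 3 and 4 and F2 PNO 1, 2 and 4). Under the covariate of thalamus markers the limma p was above 0.05 for Chat (-0.42) and Calb2 (-0.15). Calb2 is on the thalamus list and thus part of that covariate, so its drop was partly built in. The 16 dopamine signalling genes had a median of 0.13 (0.15 without F2 PNO 1); Drd2 alone had p under 0.05, and Th, the dopamine synthesis enzyme, was at 1.02, 1.3, 1.38 and 1.12 FPKM in F1 PNO and 1.89, 1.69, 1.72 and 1.51 FPKM in F2 PNO. Of 13 interneuron markers, 2 were lower at p under 0.05 and past the criterion, which 1.23% of all genes met as lower; without F2 PNO 1 0 did, and the median of -0.18 became -0.01. They are Chat, the acetylcholine synthesis enzyme, at 2.31, 1.77, 2.35 and 1.99 FPKM in F1 PNO and 1.1, 1.49, 1.8 and 0.88 FPKM in F2 PNO, and Calb2, which thalamic neurons express as well. Calb2 was at 68.6, 133, 138 and 142 FPKM in F1 PNO and 67.7, 70.3, 103 and 69.5 FPKM in F2 PNO, and both genes overlapped. Sst, the most abundant interneuron marker, was at 290.1, 204, 325 and 267 FPKM in F1 PNO and 369, 373, 249 and 269 FPKM in F2 PNO, with overlap.

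Among marker lists with more than 1 gene tested, the lowest median was that of thalamus and habenula, regions that lie behind the nucleus accumbens. Gbx2, a homeobox gene of thalamic neurons, was at 3.53, 7.22, 5.81 and 7.21 FPKM in F1 PNO and 0.39, 1.3, 5.09 and 0.38 FPKM in F2 PNO. F2 PNO 3 lay within F1 PNO and the other 3 F2 PNO libraries were below it (log2 difference -2.35; limma p = 0.00879, exact p = 0.0571). Lhx9, another such homeobox gene, was at 3.38, 7.4, 2.89 and 5.72 FPKM in F1 PNO and 0.41, 1.7, 2.58 and 0.36 FPKM in F2 PNO, without overlap (log2 difference -2.16; limma p = 0.00594, exact p = 0.0286). Ntng1, a netrin that thalamic axons carry, was at 14.1, 30.7, 16.2 and 20.8 FPKM in F1 PNO and 7.76, 9.57, 19 and 4.16 FPKM in F2 PNO (log2 difference -1.14; limma p = 0.0246, exact p = 0.0857). F2 PNO 3 was again the high library of its group. The limma p was above the threshold without each library in brackets in turn for Ntng1 (F1 PNO 2 and 4 and F2 PNO 4). All 12 tested of the list's 13 genes were lower on the log2 scale, from -2.35 to -0.60, and 6 of 12 met the criterion, where 1.23% of all genes did. The median was -1.10, and -0.92 without F2 PNO 1. Then 3 of 12 met the criterion as lower, as did 137 of all 13619 genes. Summed over the list the level was 234, 532, 333 and 422 FPKM in F1 PNO and 161, 206, 369 and 136 FPKM in F2 PNO, Calb2 being the most abundant, and no member was at 0 in all 8 libraries. Between the generations of SAL and of IUO the list's median was 0.24 and 0.28. With the list's mean level as a covariate the criterion was met by 154 genes in place of 306, 56 higher and 98 lower. The 6 list genes among the 306 are part of that covariate. How much of each other difference goes with this list was not tested beyond the covariate values given.

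**Figure D3:**
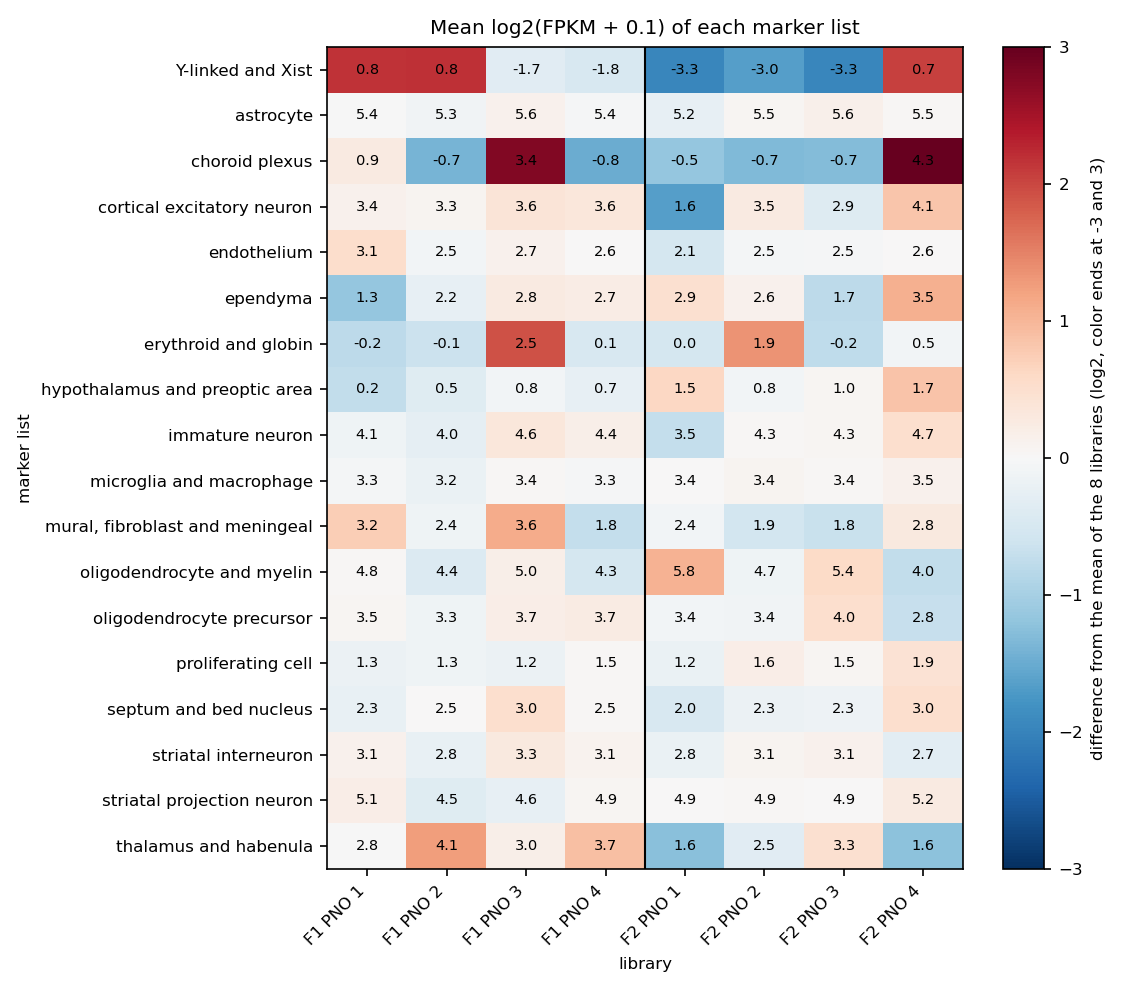
Mean log2(FPKM + 0.1) of the 18 marker lists (rows, value printed in each cell) in the 8 libraries (columns); color is the difference from the row's mean on the log2 scale. The thalamus and habenula row runs from 1.57 in F2 PNO 1 to 4.06 in F1 PNO 2, and the choroid plexus row is highest in F2 PNO 4 (4.26) and F1 PNO 3 (3.43).

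Markers of other neighbouring regions were less even. Of 6 septum and bed nucleus markers, the transcription factor genes Zic1 and Zic2 were lower past the criterion (log2 differences -0.68 and -1.04; limma p = 0.039 and 0.0442, exact p = 0.114 and 0.114), and the median was -0.09 (-0.09 without F2 PNO 1). Over all genes 1.23% were lower past the criterion, and without F2 PNO 1 0 of these 6 markers were. Zic2 was at 9.99, 16.8, 14.7 and 13.2 FPKM in F1 PNO and 2.75, 4.76, 13.2 and 10.2 FPKM in F2 PNO, with F2 PNO 3 and 4 within F1 PNO; Zic1 is on the thalamus list as well. The 14 cortical excitatory neuron markers had none at p under 0.05 and a median of -0.54, which was 0.05 without F2 PNO 1. Their sum, led by Nrgn, was 963, 874, 1110.0 and 1048 FPKM in F1 PNO and 574, 1024, 698 and 1554 FPKM in F2 PNO, lowest in F2 PNO 1 and highest in F2 PNO 4. The 10 hypothalamic and preoptic markers tested were all on the higher side, none with p under 0.05, and their median of 0.61 became 0.24 without F2 PNO 1. Avp, the vasopressin precursor, was at 1.98, 1.09, 5.18 and 2.56 FPKM in F1 PNO and 47.6, 1.92, 1.48 and 5.5 FPKM in F2 PNO. Oxt, the oxytocin precursor, was at 0.34, 1.81, 2.54 and 6.0 FPKM in F1 PNO and 51.9, 1.09, 2.9 and 4.22 FPKM in F2 PNO. F2 PNO 1 held the high value of both peptides, and the other 7 libraries overlapped. The thyrotropin-releasing hormone gene Trh was at 3.26, 4.42, 7.51 and 4.43 FPKM in F1 PNO and 30.3, 7.27, 15.6 and 4.15 FPKM in F2 PNO (limma p = 0.0565, exact p = 0.2), with F2 PNO 2 and 4 inside the range of F1 PNO. Choroid plexus markers, 3 tested of 13, were summed at 278, 26.4, 3911 and 35.4 FPKM in F1 PNO and 33.3, 29.8, 43.5 and 6950.3 FPKM in F2 PNO, so each generation had 1 library rich in them. Left-out libraries, in brackets, that took the limma p above 0.05 were found for Zic1 (F1 PNO 2, 3 and 4 and F2 PNO 1 and 2) and Zic2 (F1 PNO 2, 3 and 4 and F2 PNO 1 and 2). The thalamus covariate took the limma p above 0.05 for Zic1 (-0.18) and Zic2 (-0.37). Zic1 is part of that covariate, so its drop was partly built in.

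Microglia markers include 3 higher genes whose groups did not overlap. C1qb, a chain of the complement component that tags synapses, was at 29.2, 28.7, 38.8 and 34.5 FPKM in F1 PNO and 56.9, 44.5, 41.4 and 44.7 FPKM in F2 PNO. Laptm5, a lysosomal protein of blood-lineage cells, was at 9.16, 9.18, 11.1 and 9.86 FPKM in F1 PNO and 14.5, 11.3, 14 and 15 FPKM in F2 PNO. Csf1r, the receptor that microglia need to survive, was at 18.8, 18.7, 19.3 and 21.1 FPKM in F1 PNO and 23.5, 24.6, 23.1 and 28.9 FPKM in F2 PNO. All F2 PNO libraries were above all F1 PNO libraries for these 3 genes, with log2 differences of 0.52, 0.47 and 0.36 (limma p = 0.00571, 0.00694 and 0.0114, exact p = 0.0286, 0.0286 and 0.0286), below 1.5-fold. C1qc (0.42) and Tyrobp (0.44), an adaptor of microglial receptors, also had p under 0.05, while Tmem119, a marker of homeostatic microglia, was lower at 6.35, 4.75, 8.21 and 5.81 FPKM in F1 PNO and 3.75, 5.86, 3.73 and 3.39 FPKM in F2 PNO (limma p = 0.0325, exact p = 0.0857). In all, 5 of 16 microglia markers were higher and 1 lower at p under 0.05, beside 271 and 309 of all 13619 genes, and none passed the adjusted threshold. Their median was 0.23 (0.22 without F2 PNO 1), close to the 0.24 between the SAL generations, with -0.21 between the IUO generations, and their sum was 221, 213, 262 and 239.7 FPKM in F1 PNO and 303, 277, 269.8 and 279.9 FPKM in F2 PNO. With the thalamus covariate the log2 differences of C1qb, Laptm5 and Csf1r were 0.35, 0.38 and 0.29, with unadjusted limma p above 0.05. Myelin genes had 19 of 20 on the higher side but none at p under 0.05: Mbp was at 713, 481, 862 and 480.4 FPKM in F1 PNO and 1738, 683, 1114 and 441 FPKM in F2 PNO. F2 PNO 1 and 3 were high and F2 PNO 4 was the lowest of all 8, and the median of 0.37 became 0.16 without F2 PNO 1. Of 10 precursor markers Bmp4 met the criterion (log2 difference 0.85; limma p = 0.0261, exact p = 0.0857, 0.143 without F2 PNO 1). Among 15 astrocyte markers Gja1, the main astrocytic gap junction protein, had p under 0.05, at 100.1, 92.5, 81.7 and 84.9 FPKM in F1 PNO and 118, 111, 97.6 and 109.6 FPKM in F2 PNO, and the median was 0.00 (0.11 without F2 PNO 1). Omitting a library in brackets took the limma p above 0.05 for C1qc (F1 PNO 1, 2 and 4 and F2 PNO 1, 2 and 3) and Tyrobp (F1 PNO 1, 2, 3 and 4 and F2 PNO 1 and 3). The same held for Tmem119 (F1 PNO 1, 3 and 4 and F2 PNO 1, 3 and 4), Bmp4 (F1 PNO 2 and 3 and F2 PNO 1 and 3) and Gja1 (F1 PNO 3 and 4 and F2 PNO 1 and 2). With thalamus markers as covariate, limma p above 0.05 and the log2 differences in brackets were found for C1qc (0.29), Tyrobp (0.48), Tmem119 (-0.67), Bmp4 (0.66) and Gja1 (0.17).

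Some genes of vessel walls and meninges had lower means. Slc6a13, a GABA and taurine transporter of the meninges, was at 7.37, 2.3, 8.16 and 1.59 FPKM in F1 PNO and 3.31, 1.29, 0.68 and 0.86 FPKM in F2 PNO. Slc22a6, an organic anion transporter, was at 10.3, 3.33, 11.9 and 1.79 FPKM in F1 PNO and 3.86, 1.78, 1.27 and 1.43 FPKM in F2 PNO. F1 PNO 1 and 3 were high for both, and the groups overlapped (log2 differences -1.53 and -1.42; limma p = 0.0371 and 0.0442, exact p = 0.114 and 0.114). The limma p was above the threshold without each library in brackets in turn for Slc6a13 (F1 PNO 1 and 3 and F2 PNO 2, 3 and 4) and Slc22a6 (F1 PNO 1 and 3 and F2 PNO 2, 3 and 4). The same held for Acta2 (F1 PNO 1, 2 and 3 and F2 PNO 1, 3 and 4) and Top2a (F1 PNO 1, 2 and 3 and F2 PNO 2, 3 and 4). Under the covariate of thalamus markers the limma p was above 0.05 for Acta2 (-0.36) and Top2a (0.58). Of 17 mural, fibroblast and meningeal markers 3 were lower at p under 0.05, Acta2 among them, where 309 of all 13619 genes were, with a median of -0.43 (-0.44 without F2 PNO 1). Their sum was 239, 130.0, 314 and 109.9 FPKM in F1 PNO and 126, 128, 112 and 196 FPKM in F2 PNO, led by the pericyte gene Rgs5, with F1 PNO 1 and 3 highest. Endothelial markers had none of 10 at p under 0.05 (median -0.17, -0.01 without F2 PNO 1). Of 4 globin and erythroid genes none had p under 0.05, and the alpha-globin gene Hba-a2 (ENSRNOG00000029886) was at 20.1, 15.8, 278 and 21.5 FPKM in F1 PNO and 19.8, 129, 24.6 and 31.6 FPKM in F2 PNO, high in F1 PNO 3 and F2 PNO 2. Ependymal markers had a median of 0.58 (0.43 without F2 PNO 1) over 6 genes and none at p under 0.05. Top2a, a topoisomerase of dividing cells, was the 1 of 15 proliferation markers with p under 0.05 (log2 difference 0.52; limma p = 0.027, exact p = 0.0571); the median was 0.25. Without F2 PNO 1 the proliferation list had a median of 0.43 and 5 genes higher past the criterion, against 0 with all 8 libraries. Of all 13619 genes, 175 were higher past it without F2 PNO 1.

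Medians of the synapse and axon pathways depended on F2 PNO 1, while the synapse lists kept similar counts of lower genes past the criterion without it. In axon guidance that count fell from 6 to 3. Of 113 genes listed for the cholinergic synapse, 8 met the criterion as lower and 0 as higher, where 1.23% and 1.02% of all genes did. Without F2 PNO 1 these counts were 6 and 1, against 137 and 175 of all 13619 genes. The list's median was -0.17 (0.04 without F2 PNO 1). Chrnb4, the beta-4 nicotinic subunit, dense in the medial habenula, was at 2.6, 4.79, 1.82 and 5.15 FPKM in F1 PNO and 0.49, 0.38, 1.13 and 0.61 FPKM in F2 PNO. All F2 PNO libraries were under all F1 PNO libraries (log2 difference -2.27, standard error 0.43; limma p = 0.000465, exact p = 0.0286, adjusted p = 0.479), and the log2 difference was -1.53 with the thalamus covariate, with unadjusted limma p still under 0.05. Chrna3, the alpha-3 subunit it assembles with, looked up after values were seen, was at 5.11, 9.32, 2.13 and 7.96 FPKM in F1 PNO and 2.05, 2.76, 3.0 and 1.73 FPKM in F2 PNO; F1 PNO 3 lay within F2 PNO (log2 difference -1.17, -0.38 with the covariate; limma p = 0.0238, exact p = 0.0857). The other 6 are Chat, Camk2d, Gng14, Mast4 and the entries NEWGENE_1310139 and AABR07005779.5. Mast4 and NEWGENE_1310139 are both described as the same microtubule-associated kinase, with no known place in acetylcholine signalling. Both passed the filter only through F1 PNO, where they are high, so the filter favoured their place among the 8 lower genes. AABR07005779.5, described as a catalytic subunit of protein kinase A, was at 7.92, 6.34, 9.55 and 9.93 FPKM in F1 PNO and 0.06, 0.85, 0.82 and 2.1 FPKM in F2 PNO. Prkacb, whose description is the same, was at 52.9, 56.2, 55.6 and 65.8 FPKM in F1 PNO and 10.9, 75.6, 69.5 and 105 FPKM in F2 PNO. The sum of the pair had a log2 difference of -0.39 with exact permutation p = 0.971. Camk2d, a calcium and calmodulin kinase, was at 46.4, 48.4, 48.7 and 42 FPKM in F1 PNO and 19.97, 37.4, 35.8 and 28 FPKM in F2 PNO, without overlap (log2 difference -0.65; limma p = 0.00792, exact p = 0.0286). Gng14, of the G protein gamma family, was at 5.87, 6.02, 3.19 and 6.52 FPKM in F1 PNO and 0.88, 0.91, 3.64 and 2.37 FPKM in F2 PNO, and F2 PNO 3 overlapped with F1 PNO. Left-out libraries, in brackets, that took the limma p above 0.05 were found for Chrna3 (F1 PNO 2 and 4 and F2 PNO 4). The thalamus covariate took the limma p above 0.05 for Gng14 and Camk2d (-0.36).

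These genes recur in the related lists, and Slc32a1 was added after values were seen. Past the criterion as lower were 1.23% of all genes, and as higher 1.02%. The dopaminergic synapse list had 5 lower and 0 higher of 144 past the criterion (4 and 1 without F2 PNO 1), with a median of -0.15 (0.00 without F2 PNO 1). Mast4 and NEWGENE_1310139, which passed the filter only through F1 PNO, are among these 5. The GABAergic synapse list had 4 and 0 of 104 (3 and 0 without F2 PNO 1), with a median of -0.16 (0.00 without F2 PNO 1). For the glutamatergic synapse these were 2 and 0 of 122 (2 and 2 without F2 PNO 1), with a median of -0.19 (0.02 without F2 PNO 1). The morphine addiction list had 3 lower and 0 higher of 99 (2 and 0 without F2 PNO 1), Gng14 and AABR07005779.5 among them, with a median of -0.11 (0.07 without F2 PNO 1). Slc32a1, the vesicular GABA transporter, was higher at 72.6, 59.4, 76.4 and 89 FPKM in F1 PNO and 103, 89.8, 99.8 and 87.6 FPKM in F2 PNO, and F2 PNO 4 lay within F1 PNO (limma p = 0.0237, exact p = 0.0571). Omitting a library in brackets took the limma p above 0.05 for Slc32a1 (F1 PNO 1 and 2 and F2 PNO 3). With thalamus markers as covariate, limma p above 0.05 and the log2 differences in brackets were found for Slc32a1 (0.34) and Cplx1 (-0.24). The 13 GABA-A subunits had a median of -0.41 (0.02 without F2 PNO 1), and the 18 ionotropic glutamate receptor genes had none at p under 0.05 and a median of -0.10 (0.05 without F2 PNO 1). Postsynaptic scaffold genes had none of 22 at p under 0.05 and a median of -0.21 (0.10 without F2 PNO 1). Of 23 vesicle and release genes 22 were on the lower side, where 8186 of all 13619 genes were, with a median of -0.24 (-0.05 without F2 PNO 1). Cplx1, the complexin that clamps fusion, had p under 0.05, at 244, 237, 250.1 and 249.5 FPKM in F1 PNO and 191, 167, 236 and 175 FPKM in F2 PNO.

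Axon guidance genes were lower without overlap for 10 and higher without overlap for 0 of 214, where 251 and 193 of all 13619 genes were. The criterion was met by 6 lower and 0 higher genes (3 and 1 without F2 PNO 1), against 1.23% and 1.02% of all genes, and the median was -0.18 (0.01 without F2 PNO 1). Of the next genes Shh, Epha3 and Nrp2 were picked after values were seen. Shh, the secreted patterning factor, was at 1.29, 1.47, 1.21 and 1.59 FPKM in F1 PNO and 0.03, 0.72, 0.86 and 0.51 FPKM in F2 PNO, without overlap, F2 PNO 1 being lowest (log2 difference -1.57; limma p = 0.031, exact p = 0.0286). It passed the filter only through F1 PNO, so its lack of overlap followed from how it was kept. It is nonetheless counted among the 10 genes without overlap and the 6 past the criterion. Epha3, an ephrin receptor, was at 2.52, 2.66, 2.21 and 2.24 FPKM in F1 PNO and 1.08, 2.18, 1.49 and 1.16 FPKM in F2 PNO, also without overlap (limma p = 0.0238, exact p = 0.0286). Robo2, the receptor for Slit repellents, was at 16.1, 13, 13.3 and 12.8 FPKM in F1 PNO and 6.81, 10.8, 7.41 and 12.1 FPKM in F2 PNO (log2 difference -0.60; limma p = 0.0151, exact p = 0.0286). All of F2 PNO was below F1 PNO for these 3 genes. Nrp2, the semaphorin receptor, and Fndc1, a fibronectin-domain protein not known as a guidance factor, had log2 differences of -0.70 and -1.05; Ntng1 and Camk2d, given above, complete the 6 past the criterion with Shh, Epha3, Fndc1 and Nrp2. The limma p was above the threshold without each library in brackets in turn for Shh (F1 PNO 1, 2, 3 and 4) and Epha3 (F1 PNO 1 and 2 and F2 PNO 4). The same held for Nrp2 (F1 PNO 1 and 3 and F2 PNO 1 and 2), Fndc1 (F1 PNO 1) and Tubb3 (F1 PNO 2 and 3 and F2 PNO 1 and 2). Under the covariate of thalamus markers the limma p was above 0.05 for Shh (-0.62), Epha3 (-0.45), Nrp2 (-0.85), Camk2d (-0.36) and Ntf3 (-0.63). The Y-linked covariate took the limma p above 0.05 for Robo2 and Fndc1, as well as for Shh, Epha3 and Nrp2. Of 11 neurotrophin genes Ntf3 was lower past the criterion, at 1.59, 3.33, 2.5 and 2.12 FPKM in F1 PNO and 0.79, 0.74, 1.62 and 0.99 FPKM in F2 PNO (log2 difference -1.14; limma p = 0.0072, exact p = 0.0571), with F1 PNO 1 just below the highest F2 PNO value. Bdnf was at 1.14, 1.95, 2.01 and 1.58 FPKM in F1 PNO and 0.43, 1.35, 1.28 and 1.05 FPKM in F2 PNO, with overlap, and the median was -0.11 (-0.14 without F2 PNO 1). The 24 clustered protocadherins had none at p under 0.05 and a median of -0.19 (0.04 without F2 PNO 1); the 105 matrix-receptor genes had none and -0.15 (0.03 without F2 PNO 1), and the 15 perineuronal net genes none and -0.03 (0.09 without F2 PNO 1).

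Most cytosolic ribosomal protein genes lay on the higher side, few of them past the criterion. Of 89 tested, 84 were on the higher side and 16 were higher at p under 0.05, with 1 lower; over all 13619 genes 271 were higher and 309 lower at that p, and no member passed the adjusted threshold. The median was 0.24, and 0.14 without F2 PNO 1, in the SAL generations 0.18 and in the IUO generations 0.24. Rpl36 was at 294, 287, 250.3 and 307 FPKM in F1 PNO and 567, 349, 362 and 476 FPKM in F2 PNO. Rpl36a was at 25.2, 26, 27.4 and 26.9 FPKM in F1 PNO and 45, 36.9, 30.5 and 34.6 FPKM in F2 PNO. F2 PNO 1 was highest for both and the groups did not overlap (log2 differences 0.60 and 0.46; limma p = 0.00589 and 0.00589, exact p = 0.0286 and 0.0286). Past the criterion were Rpl19, Rpl36 and the Rpl7a entry ENSRNOG00000049097 (0.79) as higher and Rpl10l, a paralogue of Rpl10, as lower (-1.23). Without F2 PNO 1, 1 was higher past the criterion and 0 lower. Summed with RGD1562420, Rpl19 had a log2 difference of 0.11 and overlapping groups, as given above. The list's sum was 22503, 22560.0, 24860.0 and 24979 FPKM in F1 PNO and 35617, 24522, 25964 and 27344 FPKM in F2 PNO, F2 PNO 1 being far above the other 7, and Rpl41 was the most abundant gene. Upper-quartile rescaling gave a median of 0.27 and median-ratio rescaling gave 0.27, in the same direction. Of 78 mitochondrial ribosomal protein genes 3 were higher at p under 0.05, Mrpl50, Mrpl14 and Mrpl52, where 271 of all 13619 genes were. The list's median was 0.03 (-0.02 without F2 PNO 1). Mrpl50 was at 4.88, 4.71, 3.78 and 4.28 FPKM in F1 PNO and 9.52, 6.78, 7.95 and 6.22 FPKM in F2 PNO, without overlap (log2 difference 0.76; limma p = 0.00186, exact p = 0.0286). Respiratory chain genes did not separate: the 86 nuclear genes had a median of 0.03 (-0.06 without F2 PNO 1) with Cycs, cytochrome c, lower (limma p = 0.037, exact p = 0.0571), and the 13 mitochondrial genes had 0.15 (0.04 without F2 PNO 1) with none at p under 0.05. Left-out libraries, in brackets, that took the limma p above 0.05 were found for Rpl10l (F1 PNO 1, 3 and 4 and F2 PNO 1, 3 and 4) and Cycs (F1 PNO 1 and 2 and F2 PNO 3 and 4). The same held for Mrpl14 (F1 PNO 1 and 4 and F2 PNO 1 and 3) and Mrpl52 (F1 PNO 1 and 2 and F2 PNO 1). The thalamus covariate took the limma p above 0.05 for Rpl19 (0.43), Rpl36 (0.37), Rpl36a (0.31), Rpl7a (0.59), Rpl10l (-1.43), Mrpl52 (0.16) and Cycs (-0.29).

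Protein folding and turnover lists had few genes past the criterion. In the unfolded protein response list, 21 genes, Sdf2l1, a chaperone partner of the endoplasmic reticulum, was at 5.66, 7.54, 6.53 and 9.95 FPKM in F1 PNO and 26.2, 10.6, 13 and 12.1 FPKM in F2 PNO. F2 PNO 1 was highest and the groups did not overlap (log2 difference 0.98, 0.70 without F2 PNO 1; limma p = 0.00825, exact p = 0.0286); no other member had p under 0.05 and the median was 0.10 (0.12 without F2 PNO 1). Of 281 genes of protein processing in the endoplasmic reticulum, 1 was higher past the criterion, Derl3, and 2 were lower, Pdia5, a disulfide isomerase, and Capn1, a calcium-activated protease (median -0.06 (0.02 without F2 PNO 1)). Over all genes 1.02% and 1.23% did so, and without F2 PNO 1 the list's counts were 0 higher and 2 lower. Pdia5 was at 3.67, 2.03, 4.42 and 2.54 FPKM in F1 PNO and 2.41, 1.31, 1.24 and 0.97 FPKM in F2 PNO, with F2 PNO 1 within F1 PNO. Capn1 was at 4.8, 5.45, 5.96 and 4.08 FPKM in F1 PNO and 3.0, 3.22, 3.68 and 3.23 FPKM in F2 PNO, without overlap. The 41 proteasome genes had a median of 0.05 (-0.02 without F2 PNO 1), with Psme2, part of the interferon-induced activator, higher (limma p = 0.0458, exact p = 0.0571) and Psme4 lower (limma p = 0.048, exact p = 0.0286). Omitting a library in brackets took the limma p above 0.05 for Psme2 (F1 PNO 1, 2, 3 and 4 and F2 PNO 1 and 4) and Psme4 (F1 PNO 1, 2 and 4 and F2 PNO 1, 2, 3 and 4). The same held for Derl3 (F1 PNO 1 and 3 and F2 PNO 1 and 3). With thalamus markers as covariate, limma p above 0.05 and the log2 differences in brackets were found for Psme2 (0.10), Psme4 (-0.20), Sdf2l1 (0.90) and Capn1 (-0.53). Interferon and antigen presentation genes, 13 tested, had 11 on the higher side and a median of 0.39 (0.40 without F2 PNO 1), RT1-A2 alone having p under 0.05. B2m, which pairs with class I chains, was at 158, 163, 143 and 164 FPKM in F1 PNO and 216, 187, 179 and 148 FPKM in F2 PNO, with overlap. Spliceosome genes had 2 higher and 1 lower of 251 past the criterion, against 1.02% and 1.23% of all genes (median -0.04 (0.02 without F2 PNO 1)); Ddx31, a helicase of ribosome making, was at 1.03, 1.2, 1.15 and 1.19 FPKM in F1 PNO and 1.7, 1.78, 2.18 and 2.46 FPKM in F2 PNO, without overlap. LOC685273 was at 12.7, 12.5, 13.5 and 14.9 FPKM in F1 PNO and 19.4, 24.1, 23.6 and 18.7 FPKM in F2 PNO, all higher in F2 PNO (log2 difference 0.67; limma p = 0.000589, exact p = 0.0286). Of 11 copies of the small RNAs U6 and 7SK that passed the filter, of 466 in the files, 1 had p under 0.05 (median 0.35 (0.62 without F2 PNO 1)).

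Lists tied to lasting regulation and to stress gave few genes under the unadjusted threshold. Of 14 DNA methylation genes none had p under 0.05, and the median was -0.02 (0.13 without F2 PNO 1). Histone deacetylase genes had none of 16 and a median of -0.08 (-0.01 without F2 PNO 1). Among 9 histone genes tested Hist3h2bb and Hist2h2aa2 were higher past the criterion, which 1.02% of all genes met as higher. Hist3h2bb was at 1.08, 1.03, 1.56 and 1.07 FPKM in F1 PNO and 2.26, 3.03, 1.59 and 2.46 FPKM in F2 PNO. Hist2h2aa2 was at 12.2, 10.5, 7.44 and 11.2 FPKM in F1 PNO and 25.1, 11.2, 21.1 and 21.4 FPKM in F2 PNO. The groups of Hist3h2bb did not overlap and those of Hist2h2aa2 did, through F2 PNO 2; the list's median was 0.02 (0.01 without F2 PNO 1). Imprinted genes had none of 20 at p under 0.05 (median 0.00 (0.02 without F2 PNO 1)), though Dlk1, a Notch-like ligand, reached 77.9 FPKM in F2 PNO 4 and was between 2.55 and 5.8 FPKM in the other 7. None of 19 immediate early genes passed, and their median of 0.06 became 0.37 without F2 PNO 1, in which Nr4a2, a nuclear receptor induced by activity, was at 0.7 FPKM. None of 18 clock genes passed (median -0.03, 0.14 without F2 PNO 1). Of 15 glucocorticoid and stress genes, Cdkn1a, a cell cycle inhibitor, was lower (log2 difference -0.58; limma p = 0.0474, exact p = 0.0857, 0.143 without F2 PNO 1), and the median was 0.03 (0.14 without F2 PNO 1). Cholesterol synthesis had none of 23 and a median of -0.01 (0.04 without F2 PNO 1), and hypoxia and glycolysis none of 15 and -0.08 (-0.01 without F2 PNO 1). The study names genes picked from its sequencing and others, Pdyn and Nptx2 among them, for their part in the hypocretin system. Of 9 of these that were tested, Pdyn was higher and Nptx2, a pentraxin of excitatory synapses, lower past the criterion, and neither met it without F2 PNO 1 (median 0.01 (0.11 without F2 PNO 1)). Nptx2 was at 31.5, 36.2, 42.5 and 30.1 FPKM in F1 PNO and 8.76, 25.6, 33.4 and 18.1 FPKM in F2 PNO, with F2 PNO 3 within F1 PNO (limma p = 0.0416, exact p = 0.0857). Hcrt, the orexin precursor, was at 0.38, 1.31, 2.58 and 0.61 FPKM in F1 PNO and 1.87, 2.71, 3.14 and 0.92 FPKM in F2 PNO, with overlap. Its receptor gene Hcrtr1 was at 1.57, 1.95, 0.64 and 2.25 FPKM in F1 PNO and 1.79, 1.59, 0.96 and 1.59 FPKM in F2 PNO, with overlap, and Pmch, under the filter, was at 16.1 FPKM in F2 PNO 3 and at most 2.5 FPKM elsewhere. The limma p was above the threshold without each library in brackets in turn for Cdkn1a (F1 PNO 2, 3 and 4 and F2 PNO 1, 2 and 4) and Nptx2 (F1 PNO 1, 2, 3 and 4 and F2 PNO 4). Under the covariate of thalamus markers the limma p was above 0.05 for Hist3h2bb (0.63), Hist2h2aa2 (0.78), Cdkn1a (-0.12) and Nptx2 (-0.22).

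**Figure D4:**
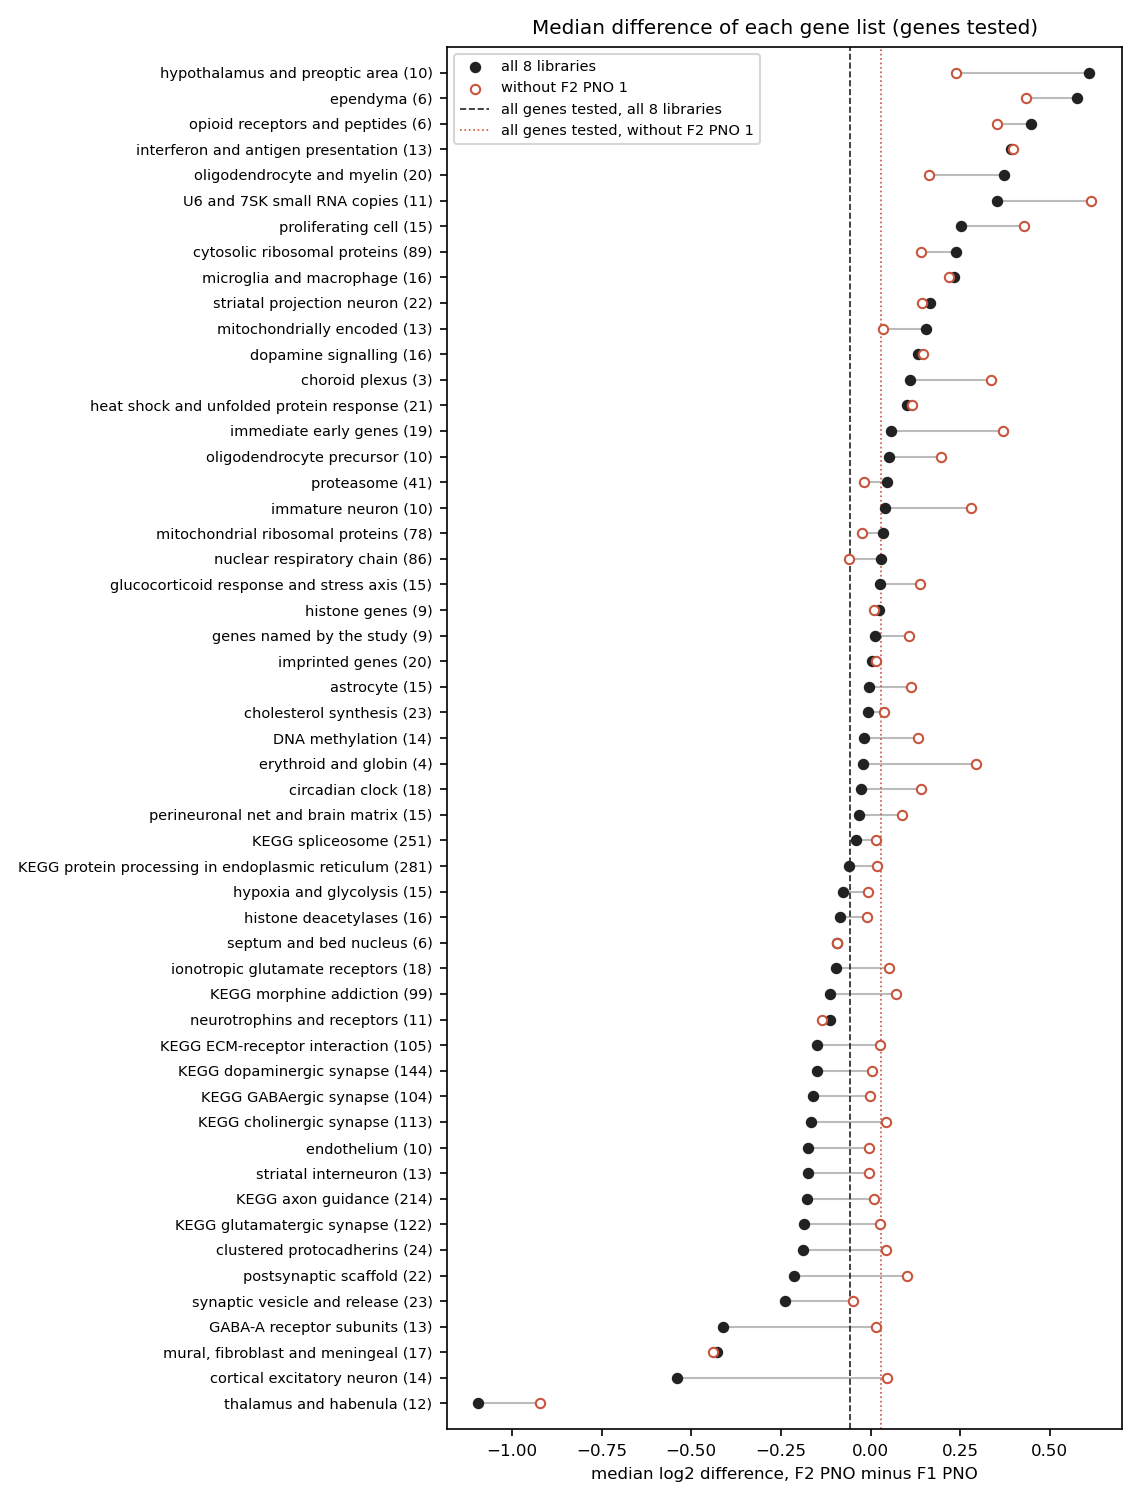
Median log2 difference (F2 PNO minus F1 PNO, horizontal axis) of each gene list with more than 1 gene tested (rows, genes tested in brackets), with all 8 libraries (filled) and without F2 PNO 1 (open); vertical lines are the medians over all genes. Without F2 PNO 1 the cortical excitatory neuron median moved from -0.54 to 0.05, while that of thalamus and habenula moved from -1.10 to -0.92.

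Whether the generations differed otherwise in the PNO lineage than in saline was tested by the limma interaction over 16 libraries. No gene had an adjusted p under 0.05 against SAL, where 500 genes (3.67%) had an unadjusted p under 0.05, and none against IUO, where 823 (6.04%) did. Without F2 PNO 1 the unadjusted counts were 988 and 1936, with 0 adjusted calls in either. Pxmp4 had the smallest interaction p against SAL. In SAL it was at 14.2, 17.4, 8.6 and 15.4 FPKM in F1 and 13.3, 16.6, 16.7 and 21.6 FPKM in F2, where the generations overlapped (log2 difference 0.32), against -1.33 in PNO (16 libraries, interaction adjusted p = 0.792 by limma). Retsat was at 12.4, 12.3, 13.3 and 13.1 FPKM in F1 SAL and 14.1, 12.4, 12.8 and 12.6 FPKM in F2 SAL, a log2 difference of 0.02 against -0.84 in PNO (limma interaction adjusted p = 1). For Pxmp4 the F2 PNO values were below those of every SAL library, whereas for Retsat it was F1 PNO that stood apart, F2 PNO lying close to the SAL libraries. In IUO, Pxmp4 was at 10.5, 8.83, 12.3 and 6.87 FPKM in F1 and 8.27, 13.1, 13.3 and 4.4 FPKM in F2, so low values occurred there in both generations. Cbs (0.24 in SAL, -0.67 in PNO), Tstd1, a sulfurtransferase of sulfide metabolism (0.42 and -1.12), and Nit2, an omega-amidase (0.20 and -0.94), followed, none with a limma adjusted p under 0.05 for the interaction. On the higher side stood Uxt (-0.14 in SAL and 1.11 in PNO), Crot (-0.18 and 0.76), Arsb, a lysosomal sulfatase (-0.14 and 0.32), and Trip12, a ubiquitin ligase (-0.55 and 0.27). Tctn3, a protein of the ciliary transition zone, was listed at 0 in F1 PNO 2, 3 and 4, at 1.36 FPKM in F1 PNO 1 and at 1.22, 1.85, 1.77 and 2.44 FPKM in F2 PNO. An entry described as the same protein, LOC100912537, was at 1.43, 1.95, 2.28 and 2.75 FPKM in F1 PNO and 1.28, 1.91, 2.08 and 2.46 FPKM in F2 PNO. The sums of the pair differed by 0.58 on the log2 scale (limma p = 0.041, adjusted p = 0.932, exact permutation p = 0.0857). The interaction of the sum with SAL had an unadjusted limma p under 0.05. Of the 20 genes taken by p in the comparison of generations, 15 had an unadjusted interaction p under 0.05 against SAL and 13 against IUO; they were chosen for their PNO difference, which is part of that interaction.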

How the data were processed

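Total RNA of rat nucleus accumbens was sequenced by the authors, whose deposited tables give FPKM per gene, rounded to 0.01, for 1 library each. The submitters' notes name HISAT2, SAMtools, StringTie and edgeR without versions, and the genome build is not given. Read depth is unknown, so the precision of low values is unknown. Values of the 8 PNO libraries were taken as log2(FPKM + 0.1), and genes with at least 1 FPKM in 4 or more libraries were kept. Groups were compared by limma 3.58.1 in R 4.3.3 (lmFit, eBayes with trend) with Benjamini-Hochberg adjustment over the 13619 genes, and interactions with the SAL and IUO lineages used 16 libraries each. Beside a limma p, the exact permutation p of the difference in mean log2 value is given, which cannot be below 0.0286 for 4 against 4 libraries. The study's cutoffs of 0.05 and 1.5-fold were also applied, here to the unadjusted limma p and the ratio of mean FPKM; whether the study's p was adjusted is not given in the sources used here. Tables and figures used Python 3.11.15, pandas 2.3.3, numpy 2.4.6, scipy 1.17.1 and matplotlib 3.10.9. The choice of named genes was fixed in advance as the 10 smallest p in each direction among criterion genes without overlap, the 5 largest differences, the 5 smallest interaction p, the most abundant and the 3 smallest-p members of each list, and all opioid and study-named genes. C1qc, Chrna3, Derl3, Drd1, Epha3, LOC100912537, Nefh, Nefl, Nrp2, Prkacb, Rpl10l, Rpl7a, Shh, Slc32a1, Tac1, Tmem119 and Tyrobp were added after values were seen. Members of the comparison and the 18 marker and 36 function lists were chosen with earlier results of these data known. Alternatives were other pseudocounts, filters and scalings, all 24 libraries in a fit, a replicate block, covariates of thalamus, choroid plexus and Y-linked genes, array weights, a 2-fold criterion and leaving out each library. Adding up entries with the same description was chosen after seeing the data.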

Additional observations from a re-analysis of the deposited data

Results flagged for a closer look

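Single libraries were compared with the other 3 of their group by the gap to the nearest of them as a share of the group's range, against Dixon's critical value for 4 samples. Of 156 groups of 4 tested, 13 met it; chance flags about 1 in 20 groups. For genes these were RGD1562420 in F1 PNO 2 (52.5 FPKM, lowest), Aqp1 in F2 PNO 4 (9.91 FPKM, highest), Pomc in F2 PNO 4 (818 FPKM, highest), Pxmp4 in F2 PNO 1 (5.03 FPKM, lowest), Hba-a2 (ENSRNOG00000029886) in F1 PNO 3 (278 FPKM, highest), RT1-A2 in F2 PNO 4 (6.6 FPKM, highest), Hba-a2 (ENSRNOG00000047321) in F1 PNO 3 (151 FPKM, highest) and Tctn3 in F1 PNO 1 (1.36 FPKM, highest). For mean log2 levels of marker lists they were Y-linked and Xist markers in F2 PNO 4 (0.69, highest), choroid plexus markers in F2 PNO 4 (4.26, highest), endothelium markers in F2 PNO 1 (2.05, lowest), erythroid and globin markers in F1 PNO 3 (2.45, highest) and striatal projection neuron markers in F2 PNO 4 (5.15, highest). F2 PNO 4 is named most often, through choroid plexus, Y-linked and Pomc RNA, and its value for RT1-A2 was the highest of a group that lay wholly above F1 PNO. F1 PNO 3 is named for globin genes. What these libraries have in common beyond the values given was not tested.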

How the results depend on the processing

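The count of genes with a limma adjusted p under 0.05, 3 as analysed, was 5 with a minimum of 0.1 FPKM, 1 with 5 FPKM and 5 with no filter beyond a value above 0. It was 1 with a replicate block, 1 with the thalamus and habenula covariate, 1 with the Y-linked covariate and 7 with array weights, and from 1 to 5 with each library left out. The 306 genes past the criterion became 562 with a minimum of 0.1 FPKM, 140 with 5 FPKM, 693 with no filter, 154 with the thalamus and habenula covariate and 117 at 2-fold, and from 253 to 425 with each library left out. The interaction with IUO had 1 adjusted call with a pseudocount of 1 and 0 as analysed. Of the criterion genes 54.6% were lower, but 43.1% without F1 PNO 3, 48.2% without F1 PNO 4 and 43.9% without F2 PNO 1, so the majority changed side. A tally over settings covered 84 genes with p under 0.05, which are not all of those named above. None of the 84 changed direction. Their p was no longer under 0.05 for 49 with the thalamus and habenula covariate and 23 with the Y-linked covariate. The same held for 23 with all 24 libraries in a fit and 14 with array weights. Some of the 49, Calb2 among them, are part of the thalamus covariate. Of these 84 genes, 29 kept it under every setting other than leaving out a library, and 57 when each library was left out. Median list differences changed sign under rescaling for astrocyte, erythroid, DNA methylation, cholesterol and clock genes, all near 0. Same-numbered libraries of the generations did not correlate best with each other (residual correlations -0.025, 0.037, -0.052 and -0.003), so the numbers are not taken as pairs. Limits: 4 libraries per group, F2 PNO 1 apart from the others, unequal neighbouring tissue and Y-linked RNA, unknown depth, and exposure that goes with generation within the lineage. A p above the threshold does not show that values did not differ.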

Other observations

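RGD1562420 took low values in all F2 PNO libraries, in 2 of 4 F2 SAL libraries and in most IUO libraries, while its sum with Rpl19 overlapped between the PNO generations. Pmch, the melanin-concentrating hormone precursor, reached 16.1 FPKM in F2 PNO 3, Avp 47.6 FPKM and Oxt 51.9 FPKM in F2 PNO 1, and Pomc 818 FPKM in F2 PNO 4. Thus 3 of 4 F2 PNO libraries each held a hypothalamic peptide at a level the other PNO libraries lacked. Hypothalamic RNA was not particular to F2 PNO. The mean log2 level of that marker list was at most 1.74 there, in F2 PNO 4. It was 3.12 in F2 IUO 3 and 2.06 in F2 SAL 4, and lower in other libraries such as F2 SAL 2 (0.36). The F1 PNO libraries had intermediate Eif2s3y in F1 PNO 3 (1.19 FPKM) and F1 PNO 4 (0.58 FPKM), between the libraries near 0 and those above 15 FPKM. Retsat was higher in F1 PNO than in any SAL or IUO library of either generation.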
